A study of Mus musculus with 12 samples.

Results

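Embryonic fibroblasts without Atm and with it were compared for how their gene expression responded to ionising radiation. For each gene the response of Atm-WT cells (irradiated minus nonirradiated) was taken from the response of Atm-KO cells, and this is called the response difference below. A negative value means a smaller rise or a larger fall in Atm-KO cells. All 12 arrays of the series entered it, and it was tested for 18430 of 32665 features on the array, of which 12805 carried a gene symbol.

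The groups were irradiated Atm-KO cells, nonirradiated Atm-KO cells, irradiated Atm-WT cells and nonirradiated Atm-WT cells, all from mouse, with 3 samples and 3 single-colour arrays each. Irradiated cells received 4.32 Gy and RNA was collected 72 h later. The labels give no allele, strain, embryo age or passage, and nothing says that replicates came from separate cultures or embryos. The p-values therefore rest on a spread between samples that may be technical and measure nothing beyond it. Replicate numbers paired the samples, with each genotype's irradiated and nonirradiated arrays of 1 number called a pair.

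Atm is a protein kinase that is switched on at DNA double-strand breaks and phosphorylates p53, Chek2 and many other proteins of the damage response. Cells that lack it repair some breaks slowly and are sensitive to radiation. Another arm of the response to damage is the type I interferon system. DNA or RNA in the cytosol is recognised by sensors, interferon beta is secreted, its receptor activates a transcription factor complex that includes Stat2 and Irf9, and this complex binds the interferon-stimulated response element in front of antiviral genes.

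Levels are log2 processed signal minus the 75th percentile of that signal on the same array. That percentile lay between 379 and 757 signal units, from 56.04% to 64.99% of spots were well above background on each array, and 0 spots were saturated. The 16 fibroblast and matrix genes were well above background on all arrays, with medians of 6.84, 6.69, 7.05 and 7.01 in irradiated Atm-KO, nonirradiated Atm-KO, irradiated Atm-WT and nonirradiated Atm-WT cells, so the labelled cell type was borne by its markers. Atm transcript lay at -5.66, -7.50 and -6.48 in irradiated Atm-KO, -5.43, -7.01 and -6.20 in nonirradiated Atm-KO, -2.87, -4.60 and -4.60 in irradiated Atm-WT and -3.55, -5.65 and -4.25 in nonirradiated Atm-WT cells. In that order 1, 0, 3 and 2 of 3 arrays measured it well above background, and the position of the probe relative to the deleted part is not known here. The adjusted p for lower Atm in Atm-KO cells was 0.476 without irradiation and 0.225 after it, so these probes are a weak check of the labels.

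The 15 named genes with the lowest moderated t for the response difference all stood in the interferon lists, which were chosen with earlier results of these data known. By value alone the lowest of all features was -3.93, a feature that was not called. Of the 15 genes, 11 had a promoter sequence in the RefSeq table, and 5 of those 11 held the core of the interferon-stimulated response element, searched as GAAA, any 2 bases and GAAA, on either strand within 250 bases before to 50 bases after the gene's start. The motif was found for 30 of 68 (44.1%) interferon-list genes with a promoter in the table, 1 of 14 of the 15 named genes with the highest t, 1 of 34 genes of the p53 lists and 380 of 10222 (3.72%) of all tested genes. Over all 32851 windows of the table the share was 3.44%. TTCNNNGAA, the Stat dimer site, stood in 16 of 68 (23.5%) interferon-list genes and in 8.28% of all tested genes, and an NF-kB site (GGGA, any 2 bases, TTCC) in 6 of 68 (8.82%) and in 1.72%. Both strands were searched, and matches of different motifs may overlap. A match is a description of letters and not of binding.

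The 150 bases before the start of the 5 genes with the motif, and of Oas1f as a called gene without it, are shown to let the sites be compared. They are RefSeq promoter sequences of build GRCm38.p6, 5′ to 3′ on the gene's strand, with the response element core, or its reverse complement, in capitals. Oas1a is at chr5:120907526-120907675 (minus strand), Isg15 at chr4:156200819-156200968 (minus strand), Bst2 at chr8:71537473-71537622 (minus strand), Ifit1 at chr19:34640739-34640888 (plus strand), Igtp at chr11:58199406-58199555 (plus strand) and Oas1f at chr5:120847217-120847366 (plus strand).
Oas1a: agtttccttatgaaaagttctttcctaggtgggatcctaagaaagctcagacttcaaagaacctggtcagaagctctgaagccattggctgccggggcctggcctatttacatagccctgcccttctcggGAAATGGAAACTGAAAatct
Isg15: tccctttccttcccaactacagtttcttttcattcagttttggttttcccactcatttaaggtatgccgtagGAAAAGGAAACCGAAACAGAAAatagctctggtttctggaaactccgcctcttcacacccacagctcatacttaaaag
Bst2: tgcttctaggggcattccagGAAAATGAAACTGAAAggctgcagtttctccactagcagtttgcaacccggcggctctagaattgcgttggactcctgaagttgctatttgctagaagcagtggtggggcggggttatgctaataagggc
Ifit1: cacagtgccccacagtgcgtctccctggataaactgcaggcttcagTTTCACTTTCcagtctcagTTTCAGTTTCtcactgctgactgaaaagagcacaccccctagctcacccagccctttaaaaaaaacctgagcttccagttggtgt
Igtp: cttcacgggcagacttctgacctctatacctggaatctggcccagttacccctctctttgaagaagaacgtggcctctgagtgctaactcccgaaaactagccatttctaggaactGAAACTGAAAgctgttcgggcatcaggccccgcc
Oas1f: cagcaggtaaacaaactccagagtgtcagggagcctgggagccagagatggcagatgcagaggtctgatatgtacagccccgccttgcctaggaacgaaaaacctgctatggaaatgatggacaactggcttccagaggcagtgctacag
In Isg15 the capitals hold 3 overlapping matches, in Oas1a and Bst2 2 overlapping matches, in Ifit1 2 separate ones on the opposite strand, and in Igtp 1.

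Over all features, few response differences passed the test. Limma called 1 feature at an adjusted p under 0.05, the gene Oas1a, which is 0.00543% of those tested. An unadjusted p under 0.05 was reached by 166 features (0.901%), with 126 lower (0.684%) and 40 higher (0.217%) in Atm-KO cells, and the median over all features was -0.06. With the pair as a block 4 features were called (0.0217%), all lower, and they were Oas1a, Oas1f, Usp18 and Isg15. All 3 Atm-KO pair responses lay below all 3 Atm-WT pair responses for 795 features (4.31%), and above them for 572 (3.1%). The responses themselves gave 1 call in Atm-KO cells (0.00543%) and 82 in Atm-WT cells (0.445%), or 377 (2.05%) and 417 (2.26%) with the pair as a block.

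**Figure D1:**
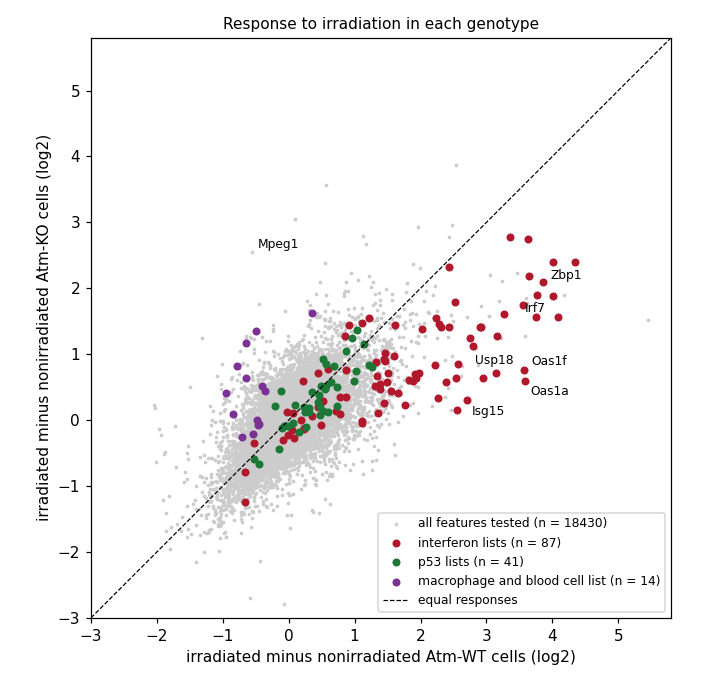
Response to irradiation (log2, irradiated minus nonirradiated) in Atm-KO cells on the vertical axis and in Atm-WT cells on the horizontal axis, for 18430 features, with 87 interferon-list, 41 p53-list and 14 macrophage and blood cell genes in colour. The interferon-list genes with a large Atm-WT response lie below the dashed line of equal responses, the p53-list genes lie along it, and the macrophage genes lie above it.

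Oas1a and Oas1f are members of the family of 2′-5′ oligoadenylate synthetases, whose active enzymes sense double-stranded RNA. Oas1a had levels of 4.58, 4.81 and 4.77 in irradiated Atm-KO, 4.01, 4.35 and 4.03 in nonirradiated Atm-KO, 2.51, 2.74 and 2.76 in irradiated Atm-WT cells and -1.37, -0.52 and -0.84 in nonirradiated Atm-WT cells. The 4 groups did not overlap, and nonirradiated Atm-WT cells stood far below the rest. Irradiated cells were 1.51-fold above nonirradiated ones in Atm-KO (adjusted p = 0.579) and 11.9-fold above in Atm-WT (adjusted p = 9.34e-05), and the response difference was -2.99 ± 0.357 (limma, SE, adjusted p = 0.0412, and 0.0167 with the pair as a block). The response was lower in every Atm-KO pair, at 0.57, 0.46 and 0.75, than in every Atm-WT pair, at 3.88, 3.25 and 3.6. The call held without nonirradiated Atm-WT replicate 2 and was lost without any other single array, with values of -3.06 to -2.76 over those fits and adjusted p from 0.0724 to 0.258.

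Oas1f had levels of 5.00, 4.42 and 4.52 in irradiated Atm-KO, 4.27, 3.77 and 3.62 in nonirradiated Atm-KO, 2.30, 2.57 and 3.39 in irradiated Atm-WT and -1.53, -0.70 and -0.21 in nonirradiated Atm-WT cells. The 2 Atm-KO groups lay above both Atm-WT groups on every array. Its response difference was -2.81 ± 0.535 (adjusted p = 0.522) and was called only with the pair as a block (SE 0.26, adjusted p = 0.0167). Signal of close relatives in this family may be shared between their probes.

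Usp18 removes Isg15 from proteins and dampens signalling at the interferon receptor. Its levels were 4.80, 5.01 and 4.74 in irradiated Atm-KO, 3.89, 4.32 and 4.21 in nonirradiated Atm-KO, 4.11, 4.41 and 4.27 in irradiated Atm-WT and 0.73, 1.49 and 1.15 in nonirradiated Atm-WT cells. Nonirradiated Atm-KO and irradiated Atm-WT arrays overlapped, while all irradiated Atm-KO arrays lay above them and all nonirradiated Atm-WT arrays far below. The response difference was -2.43 ± 0.353 (adjusted p = 0.0975, and 0.0287 with the pair as a block).

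Isg15 is a ubiquitin-like protein that is joined to other proteins in infected cells. It stood at 6.92, 7.31 and 7.06 in irradiated Atm-KO, 6.61, 6.96 and 6.80 in nonirradiated Atm-KO, 6.59, 7.19 and 6.92 in irradiated Atm-WT and 3.56, 4.54 and 4.46 in nonirradiated Atm-WT cells. The first 3 groups overlapped. Pair responses were 0.31, 0.35 and 0.27 in Atm-KO cells and 3.03, 2.65 and 2.46 in Atm-WT cells, and the response difference was -2.40 ± 0.414 (adjusted p = 0.25, and 0.0287 with the pair as a block).

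**Figure D2:**
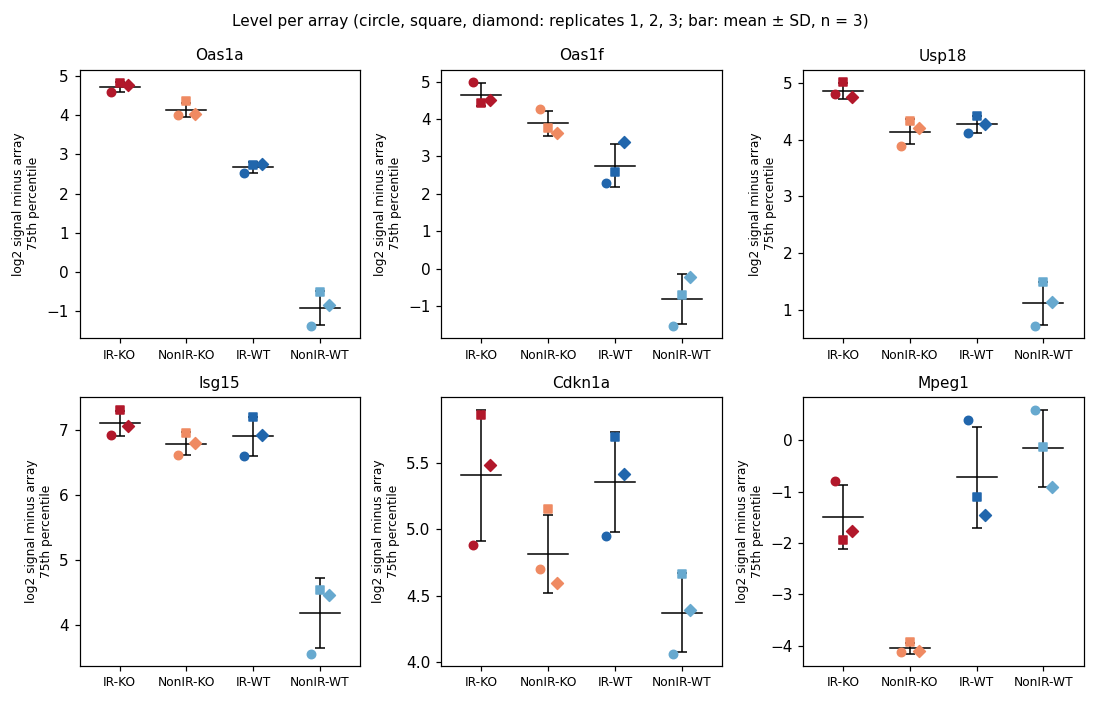
Level (log2 processed signal minus the array's 75th percentile) on each of the 12 arrays for the 4 called genes and, for comparison, Cdkn1a and Mpeg1, by group (bars: mean ± SD, n = 3; each panel has its own axis). For Oas1a, Oas1f, Usp18 and Isg15 the nonirradiated Atm-WT arrays stand below every other array.

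The genes of the 7 interferon lists had smaller responses in Atm-KO cells, and started from higher levels there. These lists hold 99 genes, of which 87 were tested. The response difference was negative for 77 of 87, with a median of -0.84 against -0.06 over all features, and an unadjusted p under 0.05 was reached by 37, all lower, against 0.684% of all features. In 49 of the 87 all Atm-KO pair responses lay below all Atm-WT ones, against 4.31% of all features, and in 1 above. The 4 genes called with the pair as a block all stood in these lists. The lists were chosen with earlier results of these data known, so these counts are not independent support. The median response was 0.70 in Atm-KO and 1.60 in Atm-WT cells, and both genotypes responded upward in most members, 75 of 87 and 81 of 87.

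Group medians of these 87 genes were 2.77 in irradiated Atm-KO, 1.72 in nonirradiated Atm-KO, 2.36 in irradiated Atm-WT and 0.12 in nonirradiated Atm-WT cells. Without irradiation 30 of the 87 were called higher in Atm-KO cells (0.391% of all features) and 0 lower, and the median difference was 1.29. After irradiation 1, Oas1a, was called higher (0.0597% of all features) and 0 lower, and the median difference was 0.33. These comparisons share arrays with the response difference and are not separate evidence for it. They give its make-up: the levels of the genotypes lay closer after irradiation than before it. Slide 1 held only Atm-WT and slide 3 only Atm-KO arrays, so outside slide 2 genotype and slide cannot be told apart in these levels. On slide 2, where both genotypes were hybridised (1 pair each), the median response difference of the 87 genes was -0.76, against -0.39 over all features there. The pairs there were Atm-KO replicate 1 and Atm-WT replicate 3, so genotype and replicate number cannot be told apart on slide 2. By list, the slide 2 medians were -0.82 for signalling and transcription factors, -0.00065 for sensors and -1.57 for oligoadenylate synthetases. They were -1.45 for the Isg15 system, -0.63 for antiviral effectors, 0.28 for GTPases and -0.79 for MHC class I genes.

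Interferon beta itself, the product of Ifnb1, was near the limit of the array. It was well above background on 3 irradiated Atm-KO, 1 nonirradiated Atm-KO, 1 irradiated Atm-WT and 0 nonirradiated Atm-WT arrays. The levels were -3.42, -4.19 and -3.90 in irradiated Atm-KO, -4.90, -5.13 and -5.69 in nonirradiated Atm-KO, -5.00, -5.72 and -6.42 in irradiated Atm-WT and -7.85, -7.07 and -7.51 in nonirradiated Atm-WT cells. Irradiated Atm-KO arrays were the brightest, but the response difference, -0.36 (95% interval -1.52 to 0.80), rests on values below background and changed sign with the background correction. The other 4 genes of interferons and their receptors that could be tested had response differences close to the median of all features, and the list median was -0.02.

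Of the 12 genes of interferon signalling and transcription factors, 4 had an unadjusted p under 0.05, all lower, among them Stat2, Irf9 and Irf7. Stat2, a subunit of the complex named above, had responses of 0.71 in Atm-KO and 1.98 in Atm-WT cells and a response difference of -1.27 ± 0.407.

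Irf9, the DNA-binding subunit of the same complex, had levels of 3.17, 3.53 and 3.47 in irradiated Atm-KO, 3.18, 3.46 and 3.55 in nonirradiated Atm-KO, 3.20, 3.59 and 3.52 in irradiated Atm-WT and 2.17, 2.53 and 2.26 in nonirradiated Atm-WT cells. The Atm-KO cells showed no measurable response, at -0.01, and sat already at the level of irradiated Atm-WT cells. Its response difference was -1.12 ± 0.325, and -1.19 on another probe.

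Irf7, which drives interferon genes in an amplifying loop, had levels of 3.85, 4.18 and 4.41 in irradiated Atm-KO, 1.74, 2.61 and 2.40 in nonirradiated Atm-KO, 2.75, 2.95 and 3.13 in irradiated Atm-WT and -1.63, -0.33 and -0.52 in nonirradiated Atm-WT cells. Irradiated cells were 3.73-fold above nonirradiated ones in Atm-KO (adjusted p = 0.166, and 0.0138 with the pair as a block) and 13.7-fold in Atm-WT cells (adjusted p = 0.000607). The response difference was -1.87 ± 0.501 (adjusted p = 1). The list median was -0.23, and it ranged from -0.48 to -0.0064 over the alternatives.

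Among 12 nucleic acid sensors and their regulators 9 response differences were negative and 3 had an unadjusted p under 0.05, all lower, with a median of -0.66. On slide 2 the median was -0.00065, against -0.39 over all features there, and the median pair responses were 1.38, 0.46 and 0.62 in Atm-KO and 1.56, 1.21 and 1.36 in Atm-WT cells, so the pairs overlapped. Dhx58, a regulator of RIG-I-like receptors, had the largest of the 4 named, at -1.90 ± 0.543, with levels of 2.34, 3.07 and 3.13 in irradiated Atm-KO, 1.71, 2.60 and 2.32 in nonirradiated Atm-KO, 1.81, 2.58 and 2.69 in irradiated Atm-WT and -0.88, 0.22 and 0.15 in nonirradiated Atm-WT cells. Zbp1, a sensor of left-handed nucleic acids, had responses of 2.10 in Atm-KO (adjusted p = 0.176, and 0.00894 with the pair as a block) and 3.85 in Atm-WT cells (adjusted p = 0.00132), and its response difference was -1.75 ± 0.608. Trex1, the exonuclease that degrades cytosolic DNA, had a response of -0.04 in Atm-KO and 1.11 in Atm-WT cells. The Trex1 response in Atm-WT cells passed the test only with the pair as a block (adjusted p = 0.0276), and that in Atm-KO cells did not with either fit. The RNA editor Adar had a response difference of -0.84 ± 0.41, and -1.46 on its other probe.

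The oligoadenylate synthetase list had a median of -1.66 over 11 genes, close to that of the Isg15 system below, with 10 negative, 7 of them with an unadjusted p under 0.05, and 2 called with the pair as a block. With genes not well above background in a group set to their bound the median was -0.91, and under another background correction (normexp) it was -0.68. Oas2 had levels of 1.68, 2.22 and 2.41 in irradiated Atm-KO, -0.49, 1.36 and 0.77 in nonirradiated Atm-KO, 0.49, 1.17 and 1.42 in irradiated Atm-WT and -3.80, -2.48 and -2.91 in nonirradiated Atm-WT cells. Its response difference was -2.53 ± 0.67, and a dimmer probe, well above background on 6 arrays, gave -0.46. Oasl2 and Oasl1, relatives of the synthetases, stood at -2.31 ± 0.382 and -1.66 ± 0.471. Median pair responses of the list were 0.72, 0.64 and 0.73 in Atm-KO and 2.83, 2.46 and 2.62 in Atm-WT cells, so the pairs of a genotype lay close together and the genotypes apart.

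All 4 genes of the Isg15 system that could be tested had negative response differences, with a median of -1.65, and 3 of them had an unadjusted p under 0.05. Beside Isg15 and Usp18 they are Ube2l6, the enzyme that carries Isg15 to its ligase, at -0.91 ± 0.401, and Uba7, which activates Isg15, at -0.68 ± 0.44. The median pair responses were 0.41, 0.52 and 0.40 in Atm-KO and 2.40, 2.04 and 1.86 in Atm-WT cells.

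Of 23 antiviral effectors 22 response differences were negative and 11 had an unadjusted p under 0.05, all lower, with a median of -1.29 (-0.65 under normexp). Rtp4, which limits flavivirus replication, had levels of 5.72, 5.29 and 5.26 in irradiated Atm-KO, 4.95, 5.17 and 5.15 in nonirradiated Atm-KO, 5.46, 5.06 and 5.07 in irradiated Atm-WT and 2.80, 3.16 and 2.83 in nonirradiated Atm-WT cells. Its response difference was -1.93 ± 0.332. Bst2, a membrane protein that tethers budding viruses, stood at -1.81 ± 0.461, Xaf1, which promotes apoptosis, at -1.53 ± 0.334, and Ifit1, which binds foreign RNA ends, at -1.89 ± 0.513. None of these passed the adjusted test, with or without the pair as a block.

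The 12 interferon-induced GTPases, which act on the membranes around intracellular pathogens, had a median of -1.06 with 11 negative and 6 of an unadjusted p under 0.05, all lower. Their response in Atm-KO cells was carried unequally by the pairs, at medians of 2.23, 0.63 and 1.13, against 3.13, 2.26 and 2.17 in Atm-WT cells. Pair 1 was the highest in both genotypes. Slide 2 sets the Atm-KO replicate 1 pair against the Atm-WT replicate 3 pair, so replicate number and genotype cannot be told apart there. The median response difference on slide 2 was 0.28, against -0.39 over all features there. The antiviral effectors had medians of 1.70, 0.59 and 0.55 in Atm-KO cells and 2.64, 2.15 and 2.08 in Atm-WT cells. Their response was also highest in pair 1 in both genotypes. Ifi47 illustrates this, with levels of 1.78, 0.77 and 0.91 in irradiated Atm-KO, 0.01, 0.65 and 0.24 in nonirradiated Atm-KO, 1.15, 0.73 and 0.75 in irradiated Atm-WT and -2.11, -1.22 and -1.76 in nonirradiated Atm-WT cells. Its response difference was -1.71 ± 0.467 over all arrays and -0.74 on slide 2. Iigp1 stood at -1.50 ± 0.544 and at -0.09 on slide 2, Igtp at -1.38 ± 0.378 and -0.93, and Irgm2 at -1.22 ± 0.376 and -1.05.

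Genes of MHC class I antigen processing had smaller differences. Of 13 tested 12 were negative, with 3 of an unadjusted p under 0.05, all lower, and a median of -0.45. These 3 were Tap1, a subunit of the peptide transporter, at -1.29 ± 0.422, and Psmb9 and Psmb8, subunits of the immunoproteasome, at -1.19 ± 0.452 and -1.11 ± 0.375. Psmb8 had levels of 4.33, 5.01 and 4.81 in irradiated Atm-KO, 4.19, 4.49 and 4.12 in nonirradiated Atm-KO, 3.77, 4.25 and 4.14 in irradiated Atm-WT and 2.17, 2.58 and 2.74 in nonirradiated Atm-WT cells. The third immunoproteasome subunit, Psmb10, stood at -0.58 ± 0.421.

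**Figure D3:**
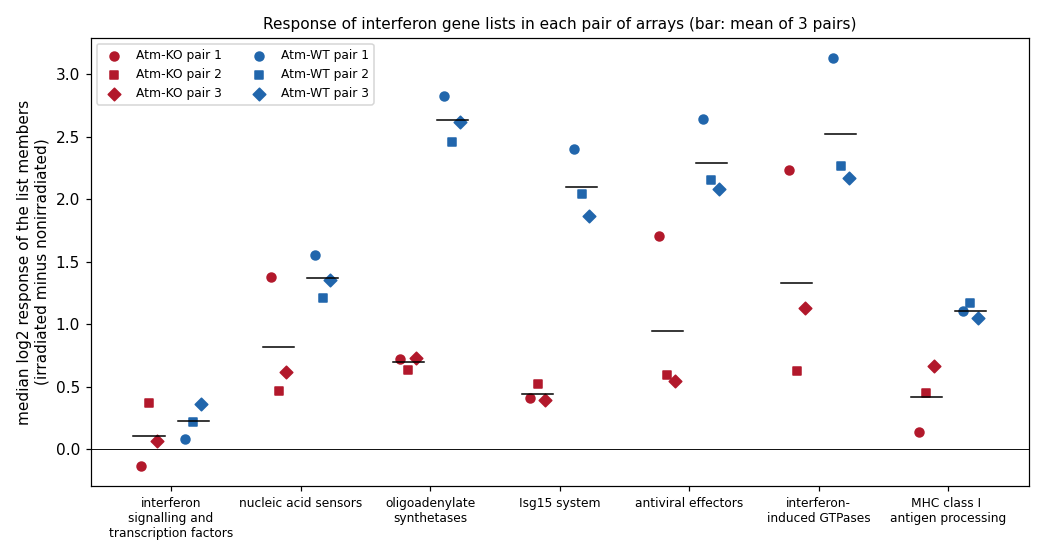
Median response (log2, irradiated minus nonirradiated) of the members of the 7 interferon lists in each pair of arrays, Atm-KO pairs left of Atm-WT pairs in each list (bars: mean of 3 pairs). The Atm-KO pairs lie below the Atm-WT pairs for oligoadenylate synthetases, the Isg15 system, antiviral effectors and MHC class I genes. Pair 1 is the highest pair of both genotypes for sensors, effectors and GTPases.

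Across the 12 arrays, the 5 named genes whose levels followed Oas1a most closely were Oas1f (Pearson r = 0.984), Oas1d (0.972), Psmb8 (0.969), Usp18 (0.960) and Xaf1 (0.953). The 12 arrays form 4 groups, so these values largely describe the order of the groups. Oas1d was not well above background in nonirradiated Atm-WT cells, and its response difference was -1.68, and 0.88 under normexp.

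Targets of p53, which Atm phosphorylates after breaks, gave no call in the response difference. None of the 41 genes tested in the 3 p53 lists had an unadjusted p under 0.05, against 0.901% of all features. At so small a share, 0 of 41 carries little information. The list medians were -0.11 for growth arrest and feedback, -0.03 for apoptosis and -0.12 for repair and metabolism, against -0.06 for all features. Of the 41, 29 were negative (57.1% of all features were), 13 of 16 in growth arrest and feedback. Median responses were 0.20 in Atm-KO and 0.48 in Atm-WT cells for growth arrest and feedback, 0.47 and 0.48 for apoptosis and 0.20 and 0.31 for repair and metabolism. Cdkn1a, the p21 inhibitor of cyclin-dependent kinases, had levels of 4.88, 5.86 and 5.48 in irradiated Atm-KO, 4.70, 5.15 and 4.59 in nonirradiated Atm-KO, 4.95, 5.70 and 5.42 in irradiated Atm-WT and 4.06, 4.66 and 4.4 in nonirradiated Atm-WT cells. Its response difference was -0.39 with a 95% interval of -1.35 to 0.57, so values within that range were not excluded here.

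Mdm2, the ubiquitin ligase that limits p53, had levels of 3.75, 2.72 and 2.56 in irradiated Atm-KO, 1.80, 2.01 and 1.49 in nonirradiated Atm-KO, 2.96, 2.50 and 2.74 in irradiated Atm-WT and 1.71, 1.93 and 1.65 in nonirradiated Atm-WT cells. Irradiated samples lay above nonirradiated ones in both genotypes, and the response difference was 0.27 (interval -0.69 to 1.24). The intervals were -1.01 to 0.87 for Ccng1, which acts in feedback on p53, and -1.20 to 1.04 for the stress cytokine Gdf15. Of the genes of repair and metabolism, Gadd45a, which acts in arrest and repair, stood at 0.56 (interval -0.12 to 1.23) and Zfp365 at -0.46 (interval -1.29 to 0.37).

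Replication and mitosis genes had negative median responses in both genotypes. The 33 DNA replication genes had median responses of -0.72 in Atm-KO and -0.66 in Atm-WT cells and a median response difference of -0.04, and the 30 mitosis genes had medians of -0.82, -0.84 and -0.04. No member of either list had an unadjusted p under 0.05, against 0.901% of all features, so this absence carries little information. Mcm5 and Mcm2, subunits of the replicative helicase, stood at -0.43 (interval -1.25 to 0.39) and -0.16 (interval -0.86 to 0.55). The licensing factor Cdc6 stood at -0.51 and at 0.22 on its other probe. Rpa1, which coats single-stranded DNA, had the highest of the list, 0.66 (interval -0.07 to 1.39), with levels of 1.49, 1.62 and 1.41 in irradiated Atm-KO, 2.42, 1.87 and 1.93 in nonirradiated Atm-KO, 1.38, 1.80 and 1.63 in irradiated Atm-WT and 2.87, 3.00 and 2.62 in nonirradiated Atm-WT cells. The nonirradiated Atm-WT arrays were the highest for Rpa1.

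Of the mitosis genes, the cyclin Ccnb1 stood at 0.09 (interval -1.33 to 1.5) and at 0.60 and 0.54 on further probes, Birc5, a chromosomal passenger protein, at -0.42 (interval -1.31 to 0.47), and the checkpoint kinase Bub1b at -0.34 (interval -1.28 to 0.59). Cenpf, a kinetochore protein, had the highest value of the list, 1.18, with an interval of -0.99 to 3.34. The median standard error of the mitosis genes, 0.612, sets how small a difference could be seen.

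Repair and senescence genes were likewise near the median of all features. The list medians were 0.06 for 22 homologous recombination and Fanconi genes, 0.09 for 21 end joining and damage signalling genes and -0.03 for 15 cell cycle inhibitors and senescence markers. In these lists 0 members had an unadjusted p under 0.05, against 0.901% of all features, so this absence carries little information. Chek2, the kinase directly downstream of Atm, stood at 0.09 (interval -0.72 to 0.90). Lmnb1, a lamina protein that declines in senescent cells, had responses of -1.35 in Atm-KO and -0.95 in Atm-WT cells and a response difference of -0.40 (interval -1.13 to 0.34). Cdkn2a, which encodes p16 and p19Arf, stood at -0.11 (interval -1.82 to 1.61), a range too wide to read. Rad54b and Xrcc2, both of homologous recombination, stood at 0.59 (interval -0.94 to 2.13) and -0.37 (interval -1.11 to 0.36).

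**Figure D4:**
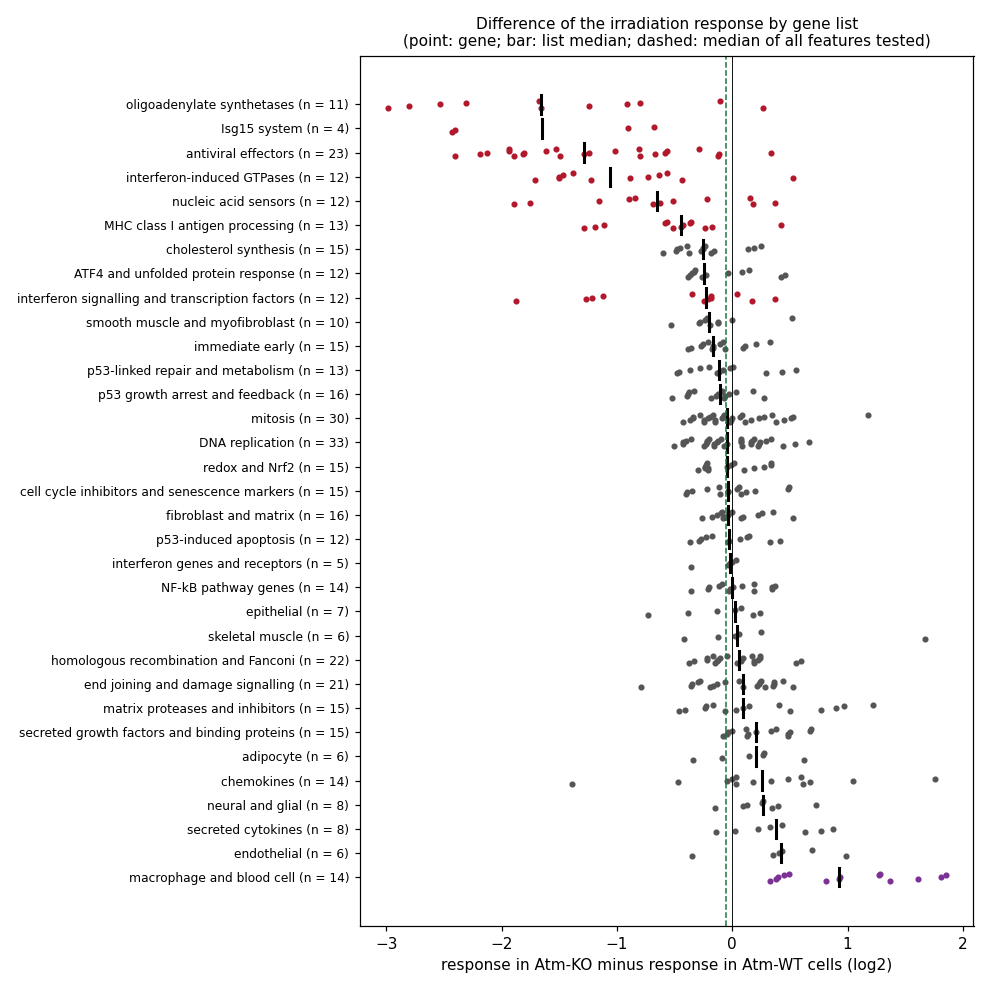
Response difference (log2, Atm-KO minus Atm-WT) of each tested member of the 33 gene lists, with the list median as a bar and the median of all features, -0.06, as a dashed line. The oligoadenylate synthetase, Isg15 system, effector and GTPase lists have medians of -1.66 to -1.06, most other lists lie near 0, and the macrophage and blood cell list lies at 0.93.

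Secreted factors of damaged and senescent cells had list medians slightly above that of all features, without a call. The medians of the response difference were 0.38 for 8 cytokines, 0.26 for 14 chemokines, 0.20 for 15 growth factors and binding proteins and 0.09 for 15 matrix proteases and inhibitors. Over the alternatives these medians were not stable in sign, at -0.06 to 0.66 for cytokines, -0.09 to 0.56 for chemokines and -0.24 to 0.50 for proteases, and stayed positive for growth factors (0.06 to 0.39). Over the 10 chemokines measured in all groups the median was 0.03, and on slide 2 that of the proteases was -0.10, against -0.39 over all features there. In each direction 1 member of these lists had an unadjusted p under 0.05, and both were chemokines. Tslp, an epithelial-type cytokine, had levels of -1.12, -1.31 and -1.58 in irradiated Atm-KO, -3.47, -2.30 and -2.53 in nonirradiated Atm-KO, -4.03, -4.15 and -4.36 in irradiated Atm-WT and -4.84, -4.84 and -4.53 in nonirradiated Atm-WT cells. Its level was higher in Atm-KO cells in both treatments, and the response difference was 0.87 (interval -0.05 to 1.80).

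Il6, a cytokine of the senescence secretome, stood at 0.43 (interval -1.88 to 2.74), and its interval holds large differences in either direction. The monocyte chemokine Ccl2 stood at 0.59 (interval -0.88 to 2.07). The stromelysins Mmp3 and Mmp10 stood at 0.90 and 0.97 with intervals of -1.17 to 2.97 and -0.99 to 2.93, and for both all Atm-KO pair responses lay above all Atm-WT ones, as they did for 3.1% of all features. Areg, a ligand of the EGF receptor, stood at 0.67 (interval -0.32 to 1.66) and was well above background on 3, 2, 2 and 1 of 3 arrays in irradiated Atm-KO, nonirradiated Atm-KO, irradiated Atm-WT and nonirradiated Atm-WT cells. Igfbp5, which binds insulin-like growth factors, stood at 0.68 and Serpine2, a protease inhibitor, at -0.47.

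Cxcl10 and Ccl4, the chemokines with an unadjusted p under 0.05, had response differences in opposite directions. Of the 14 chemokines tested, 10 had positive values. Cxcl10, which interferon induces and which attracts T cells, had levels of 3.95, 2.76 and 2.39 in irradiated Atm-KO, 1.99, 1.13 and 0.57 in nonirradiated Atm-KO, 2.08, 2.20 and 1.97 in irradiated Atm-WT and -1.39, -0.89 and -1.05 in nonirradiated Atm-WT cells. It had the pattern of the interferon lists and a response difference of -1.39 ± 0.591. Ccl4, a chemokine made by macrophages, stood at 1.75 ± 0.691 but was well above background on 1 of 3 irradiated and 0 of 3 nonirradiated Atm-KO arrays.

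No gene was called with a larger response in Atm-KO cells over all 12 arrays, with or without the pair as a block. The 15 named genes with the highest t had unadjusted p from 0.000811 to 0.0376. The first was Mpeg1, which encodes perforin-2 of macrophages, with levels of -0.79, -1.93 and -1.77 in irradiated Atm-KO, -4.11, -3.92 and -4.10 in nonirradiated Atm-KO, 0.40, -1.10 and -1.45 in irradiated Atm-WT and 0.59, -0.14 and -0.91 in nonirradiated Atm-WT cells. On slide 2 Mpeg1 rose with irradiation from -4.11 to -0.79 in Atm-KO and fell from -0.91 to -1.45 in Atm-WT cells. The nonirradiated Atm-KO arrays stood alone at the low end. The response difference was 3.11 ± 0.703 (adjusted p = 1, and 0.0701 with the pair as a block), but a second probe, well above background on 4 arrays, gave -0.26, so the probes disagree. Without the Atm-KO replicate 2 pair, and with the pair as a block, Mpeg1 was called at 3.39 (adjusted p = 0.0404).

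Of the other 14, Trem2, Fcrls, Ccl4 and Clec4d are also myeloid genes. Trem2, a receptor of macrophages and microglia, had levels of -2.79, -2.26 and -2.74 in irradiated Atm-KO, -2.71, -4.29 and -4.57 in nonirradiated Atm-KO, 0.10, 0.55 and -0.22 in irradiated Atm-WT and 0.97, 0.91 and 0.28 in nonirradiated Atm-WT cells. All Atm-KO arrays lay below all Atm-WT arrays, and nonirradiated Atm-KO replicate 1 was as high as the irradiated Atm-KO arrays. The response difference of 1.84 ± 0.614 was 0.42 on slide 2, where the median over all features was -0.39. Fcrls was well above background on 2 of 3 irradiated and 0 of 3 nonirradiated Atm-KO arrays, and Clec4d on 0 of 3 in both, so their values of 1.86 and 1.18 rest in part on spots at background.

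The remaining 10 have no shared role known here. Lonrf3, a RING finger protein, had levels of -2.17, -2.14 and -2.32 in irradiated Atm-KO, -3.06, -2.90 and -2.56 in nonirradiated Atm-KO, -2.89, -3.31 and -3.12 in irradiated Atm-WT and -2.57, -2.55 and -2.79 in nonirradiated Atm-WT cells. It went up in Atm-KO and down in Atm-WT pairs, and the response difference was 1.1 ± 0.319. Itih2, which stabilises hyaluronan matrix, stood at 0.92 ± 0.291. Enpp1, which makes pyrophosphate and degrades the cyclic dinucleotide cGAMP, had levels of 2.39, 2.37 and 2.01 in irradiated Atm-KO, 1.05, 1.71 and 0.88 in nonirradiated Atm-KO, 1.16, 0.33 and 0.44 in irradiated Atm-WT and 0.66, 0.74 and 0.37 in nonirradiated Atm-WT cells. Irradiated Atm-KO arrays were the highest for Enpp1, and the response difference was 0.99 ± 0.42.

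Angptl7, a secreted angiopoietin-like protein, stood at 1.58 ± 0.667, Nipal1, a magnesium transporter, at 1.53 ± 0.604, Coch, a matrix protein, at 1.49 ± 0.531, Map7d2, a microtubule-associated protein, at 1.48 ± 0.521, Wasf3, an actin regulator, at 1.21 ± 0.432, Gsap at 0.81 ± 0.318 and 1700001L19Rik at 0.72 ± 0.285. Nipal1, Coch, Map7d2, Wasf3 and Gsap were not well above background on all 12 arrays. A second Coch probe, well above background on 3 arrays, gave 0.54. All 15 named genes with the highest t had all Atm-KO pair responses above all Atm-WT pair responses, which their selection by t favours.

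Markers of macrophages and blood cells differed between the genotypes. All 14 tested of 17 had a positive response difference, with a median of 0.93, but 0 had an unadjusted p under 0.05 (0.901% of all features did). In 6 of the 14 all Atm-KO pair responses lay above all Atm-WT ones, against 3.1% of all features. Over the 6 well above background on all 3 arrays of every group the median was 0.47. On slide 2 it was 0.02 over the 14, against -0.39 over all features there. Their levels were lower in Atm-KO cells, with medians of -4.44 in irradiated Atm-KO, -5.39 in nonirradiated Atm-KO, -1.88 in irradiated Atm-WT and -1.26 in nonirradiated Atm-WT cells. Without irradiation 13 of 14 were called lower in Atm-KO cells (0.467% of all features), and after it 5 (0.147%), with genotype and slide largely confounded. The log2 of their summed signal lay from -0.16 to 0.35 in irradiated Atm-KO, -0.55 to 0.41 in nonirradiated Atm-KO, 2.03 to 2.64 in irradiated Atm-WT and 2.46 to 3.42 in nonirradiated Atm-WT cells, and of the fibroblast list from 10.78 to 11.52, 11.30 to 11.47, 10.82 to 11.60 and 11.08 to 11.69 in that order. Fewer such cells and less RNA per cell cannot be told apart in these bulk samples.

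Ctss, a lysosomal protease of antigen-presenting cells, was well above background on 3 irradiated and 1 nonirradiated Atm-KO arrays, and had levels of -2.0, -4.80 and -3.99 in irradiated Atm-KO, -3.18, -6.26 and -5.43 in nonirradiated Atm-KO, 0.70, -0.23 and -0.66 in irradiated Atm-WT and 1.15, 0.40 and -0.27 in nonirradiated Atm-WT cells. C1qc, a complement subunit of macrophages, was measured on 1 of 3 Atm-KO arrays in each treatment and on all Atm-WT arrays. The calcium-binding Aif1 and the Fc receptor chain Fcer1g stood at 0.81 ± 0.443 and 0.93 ± 0.588. On slide 2 they stood at -0.05 and -0.01, against a median of -0.39 over all features there. On the same slide Ctss rose with irradiation from -3.18 to -2.0 in Atm-KO and fell from -0.27 to -0.66 in Atm-WT cells. These markers move with genotype alongside the interferon genes, in the opposite direction without irradiation, and their part in the response differences was not tested.

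**Figure D5:**
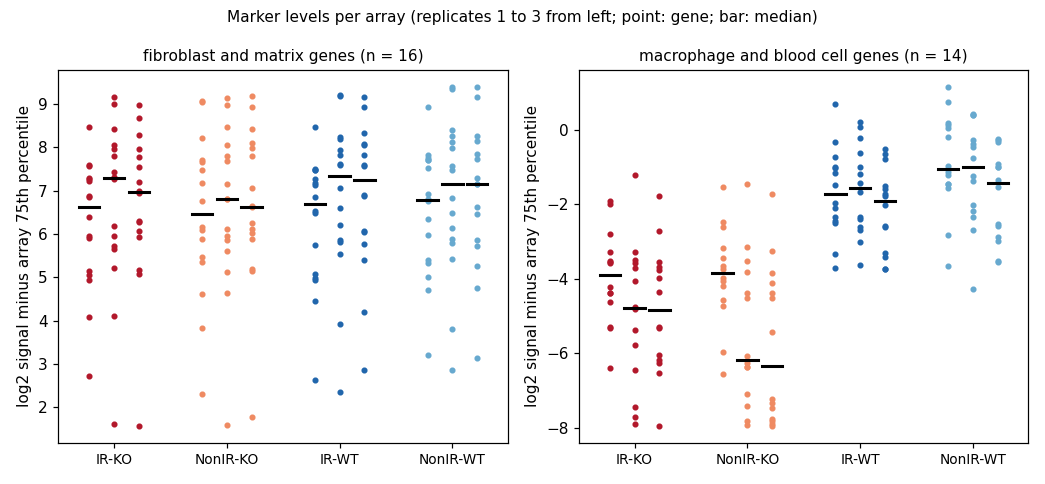
Levels (log2 processed signal minus the array's 75th percentile) of 16 fibroblast and matrix genes and 14 macrophage and blood cell genes on each array, by group, with the median as a bar. Fibroblast genes lie at like levels in all groups, while the macrophage genes are lower on every Atm-KO array than on any Atm-WT array by their median, and Atm-KO replicate 1 is the highest of the nonirradiated Atm-KO arrays.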

How the data were processed

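RNA of 12 fibroblast samples was hybridised to 1-colour arrays of Agilent design 014868. The deposited values are spot intensity, per the file headers from Feature Extraction 10.7.1.1, whereas version 11.0 stands in the submitters' processing notes. The authors' deposited matrix of log2 values, used as an alternative, follows log2 processed signal minus each array's 75th percentile, centred on each probe's median (r of at least 0.9975 against the scanner files).

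Processed signal was taken as log2 minus each array's 75th percentile, control spots were left out and spots of a probe averaged. Outlier spots were left out unless all spots of the probe on that array were outliers. Of 41174 probes, 25097 were named through accessions in RefSeq, giving 17304 genes. A feature took its brightest probe and was tested where 1 or more groups had it well above background on 3 of 3 arrays. Limma 3.58.1 in R 4.3.3 fitted the 4 group means (8 residual and 4.13 prior degrees of freedom), with Benjamini-Hochberg adjustment at 0.05. Intervals are 95%. An alternative with the pair as a block has 4 residual degrees of freedom. The pairing comes from the replicate numbers in the sample titles. Same-numbered samples of a genotype deviated together from their group means (correlations 0.269 to 0.852), although Atm-KO replicate 2 correlated more with another number (0.335). Irradiated Atm-KO replicates 1 and 2 correlated more with the same-numbered irradiated Atm-WT array (0.628 and 0.616) than within their pair (0.510 and 0.269). Replicate 3 did not (0.218 against 0.503).

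Arrays lay on 3 slides, and irradiated and nonirradiated samples always had different positions, so irradiation and array position cannot be told apart. Slide 1 held only Atm-WT arrays, slide 3 only Atm-KO arrays and slide 2 both, so genotype and slide are largely confounded. The normexp alternative uses median signal, since the files as read here hold no mean signal. Arrays have no read depth, and their number limits the precision. The fit was tested on simulated data.

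The genes named are Atm, all called genes, the 15 lowest and 15 highest moderated t among named features well above background in at least 2 groups, up to 4 members per list with the smallest p, a fixed set, and the 5 genes most like Oas1a over the arrays; some are left out for length. The genes and lists were chosen with earlier results of these data known. Some members of the lists are counted in them but not reported here.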

Additional observations from a re-analysis of the deposited data

Results flagged for a closer look

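The response to irradiation of 4 genes differed between the genotypes by the test of the difference itself. The response difference, Atm-KO minus Atm-WT on the log2 scale, was -2.99 for Oas1a (limma, adjusted p = 0.0412), with all Atm-KO pair responses below all Atm-WT ones. With the pair as a block the test also passed for Oas1f at -2.81 (adjusted p = 0.0167), Usp18 at -2.43 (0.0287) and Isg15 at -2.40 (0.0287). In each of them the nonirradiated Atm-WT arrays were the lowest. These calls depend on the fit. That of Oas1a was lost under normexp (adjusted p = 0.0973), median centring (0.157), no filter on dim probes (0.206) and slide as a fixed block (0.0828), and with most single arrays left out. That of Oas1f was absent with the replicate number as the block (0.367) and in 4 of 6 fits without a pair, and those of Usp18 and Isg15 in all 6. Groups of 3 are too small for a test of single outlying arrays.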

How the results depend on the processing

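The number of called response differences was 1 and became 0 under normexp, median centring, no filter on dim probes and slide as a fixed block, 2 under quantile normalization and under a trended, robust fit, 4 with the pair as a replicate block and 5 with the replicate number as a block. The calls of the Atm-KO response, 1, became 0 under normexp, quantile normalization, median centring, no filter, a filter on all 12 arrays and the trended fit, 377 with the pair and 43 with the replicate number as a block. The calls of the Atm-WT response, 82, became 44 under normexp, 417 with the pair and 230 with the replicate number as a block and 139 with slide as a block. Leaving out single arrays or a pair gave 0 to 3, 0 to 340 and 49 to 1006 calls for these results. With the pair as a block, the Atm-KO and Atm-WT responses gave 167 and 1006 calls without the Atm-KO replicate 1 pair, 340 and 486 without Atm-KO 2, 19 and 366 without Atm-KO 3, 112 and 89 without Atm-WT 1, 286 and 168 without Atm-WT 2 and 118 and 129 without Atm-WT 3. Without replicate 1 of every group they gave 0 and 167, and 0 and 109 with the block. Single arrays left out gave up to 101 calls in Atm-WT cells. The cause was not tested. Replicate 1 stood apart in every group for the 15 immediate early genes. Their median level on replicate 1 was 1.02 in irradiated and 1.22 in nonirradiated Atm-KO cells. It was 0.39 in irradiated and 0.65 in nonirradiated Atm-WT cells, against 3.20 to 3.59 on all other arrays. The Oas1a value was -2.58 under normexp, where the median of all features moved to 0.16. Under normexp the sign turned for Ifnb1 (1.07), Zfp365 (0.58), Cdc6 (0.24), Xrcc2 (0.34), Atm (0.66) and Oas1d (0.88), under quantile normalization for Ifnb1 (0.15) and with the mean of all probes for Chek2 (-0.11). With arrays or pairs left out it turned for Ifnb1 (-0.71 to 0.18, 0.14 without replicate 1 of every group), Mdm2 (-0.10 to 0.54, over single arrays to 0.50, -0.080 without the Atm-KO 1 pair), Gdf15 (-0.37 to 0.20), Ccng1 (-0.38 to 0.24, 0.035 and 0.14 without the Atm-KO 1 and Atm-WT 1 pairs), Mcm2 (-0.29 to 0.02, the highest being 0.019 without the Atm-KO 1 pair), Ccnb1 (-0.30 to 0.49, -0.016 without the Atm-WT 3 pair), Cdkn2a (-0.78 to 0.47, over single arrays to 0.41, 0.13 without the Atm-KO 3 pair), Chek2 (-0.12 to 0.24, -0.085 without the Atm-WT 2 pair), Il6 (-0.14 to 1.19) and Ccl2 (-0.022 to 1.11). The other 64 of 79 genes checked kept their sign under all 32 settings that gave a value. The 8 alternatives without a pair or without replicate 1 of every group were chosen after seeing the data. Signal near background limits Ifnb1, Atm and the macrophage genes.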
